A study of Mus musculus with 15 samples.

Results

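The livers of mice on a steatohepatitis diet, with and without biotransformed bear bile powder, were compared for 27 genes of cholesterol synthesis and of SREBP2, the transcription factor that controls it. The genes were taken by symbol from a table of 17527 genes. All 27 were in the table, and all 27 reached the mean of 1 FPKM (a fragment count scaled for transcript length and library depth) that was asked of the 9575 genes tested. By role, 7 of them lead from acetyl-CoA through mevalonate to farnesyl diphosphate, 1 forms geranylgeranyl diphosphate, 3 lead through squalene to lanosterol, and 9 turn lanosterol into cholesterol. Another 6 encode SREBP2 and the proteins that retain, escort or cleave it, and 1 encodes a sterol carrier.

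The 15 liver libraries fell into 3 groups of 5. The labels of the control group name no treatment, and strain, sex and age are given for no group. The model group and the group labelled BBBPH (also JDH) were fed for 20 weeks on a diet with 60% of its energy from fat, 20% from protein and 20% from carbohydrate, and with 0.2% cholesterol. Their drinking water held 42 g of sugar per litre, of which 55% was sucrose and 45% fructose by weight. After 12 weeks of this diet the powder was given by mouth to the BBBPH group at 150 mg/kg each day, and saline to the model group, while the diet went on. The BBBPH group had 14 mice, of which 5 livers are described here. What the control mice ate is not stated in the labels, and the powder was given only on top of the diet. Below, a change on the diet means model against control. In it the diet cannot be told apart from any other difference between these groups.

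The liver makes cholesterol from acetyl-CoA by a long chain of enzymes of the cytosol and the endoplasmic reticulum, and the early intermediates also feed ubiquinone, dolichol and the prenyl groups of proteins. SREBP2 is made as a protein of the endoplasmic reticulum membrane. When sterols are scarce its escort SCAP carries it to the Golgi, where the proteases encoded by Mbtps1 and Mbtps2 release the part that enters the nucleus and switches on the genes of synthesis. When sterols are plentiful, INSIG1 and INSIG2 hold SCAP and SREBP2 back in the endoplasmic reticulum.

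Libraries held 35395712 to 39624160 fragments as read from the steps of the FPKM values, so that 1 fragment per kilobase of transcript stood for 0.0252 to 0.0283 FPKM. The lowest count behind any value of the 27 genes was 55 fragments, for Mvd in a control library. The labels do not say that the 5 libraries of a group came from separate animals, so that p-values measure the spread between these libraries. Markers of hepatocytes had summed levels of 62030 to 70820 FPKM in control, 36590 to 57050 in model and 56630 to 66710 in BBBPH livers (9 genes, none at 0). In bulk RNA, fewer cells of a type and less RNA per cell cannot be told apart. Markers of stellate cells and fibroblasts summed to 113.6 to 137.8, 150 to 188.1 and 135.4 to 148.7 FPKM in the same order (10 genes, none at 0). Those of macrophages summed to 290.7 to 414.3, 329 to 531 and 356.8 to 676.4 FPKM (10 genes, none at 0). Markers of another tissue stood out in single libraries, namely pancreatic acinar markers in BBBPH 2_2 (7 genes summing to 3079 FPKM, at most 3.18 in the control and model libraries) and muscle markers in control 2_1 (6 genes, 350.5 FPKM). In model 1_4 the 7 markers of cholangiocytes summed to 255 FPKM, against 21.86 to 33.72 FPKM in the BBBPH libraries. The counts of calls among the 27 genes were also run without these 3 libraries.

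The starts of a few of these genes are shown so that the letters known to serve SREBP2 and its partners can be read in them. RefSeq start sites on GRCm38.p6 were matched for 23 of the 27 genes, and Fdft1, Fdps, Stard4 and Sqle were not matched. The 250 bases before each start are printed 5′ to 3′ on the strand of the gene. Capitals mark TCACNCCAC, the classic sterol regulatory element, and CCAAT, the box bound by NF-Y, a factor known to act beside SREBP2; either may be read on the other strand (GTGGNGTGA and ATTGG). Hmgcs1 and Mvd are shown for their rise on the diet alone, Idi1 and Cyp51 for their rise with the powder, and Insig1 and Insig2 as the pair of retention proteins. The windows lie at chr13:119690101-119690350 (Hmgcs1, plus strand), chr8:122443423-122443672 (Mvd, minus strand), chr13:8885356-8885605 (Idi1, plus strand), chr5:4104698-4104947 (Cyp51, minus strand), chr5:28071162-28071411 (Insig1, plus strand) and chr1:121332590-121332839 (Insig2, minus strand).
Hmgcs1: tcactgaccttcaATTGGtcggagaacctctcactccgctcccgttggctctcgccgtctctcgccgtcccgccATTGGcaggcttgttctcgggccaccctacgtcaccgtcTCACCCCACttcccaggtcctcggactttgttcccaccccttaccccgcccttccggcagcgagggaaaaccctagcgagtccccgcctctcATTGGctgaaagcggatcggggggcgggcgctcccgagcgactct
Mvd: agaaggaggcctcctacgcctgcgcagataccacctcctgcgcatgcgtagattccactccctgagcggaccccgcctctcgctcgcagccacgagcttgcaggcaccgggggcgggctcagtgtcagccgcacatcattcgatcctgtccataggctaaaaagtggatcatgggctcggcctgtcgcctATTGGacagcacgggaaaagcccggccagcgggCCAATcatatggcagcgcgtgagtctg
Idi1: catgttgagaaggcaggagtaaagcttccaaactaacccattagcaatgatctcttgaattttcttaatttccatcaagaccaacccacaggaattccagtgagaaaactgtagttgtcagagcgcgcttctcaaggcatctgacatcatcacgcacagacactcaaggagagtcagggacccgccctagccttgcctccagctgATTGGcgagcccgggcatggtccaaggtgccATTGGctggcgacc
Cyp51: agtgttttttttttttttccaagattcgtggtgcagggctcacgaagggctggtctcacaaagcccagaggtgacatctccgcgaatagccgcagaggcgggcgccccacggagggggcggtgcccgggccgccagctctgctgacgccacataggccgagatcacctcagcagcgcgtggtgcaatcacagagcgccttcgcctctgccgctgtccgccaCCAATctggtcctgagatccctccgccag
Insig1: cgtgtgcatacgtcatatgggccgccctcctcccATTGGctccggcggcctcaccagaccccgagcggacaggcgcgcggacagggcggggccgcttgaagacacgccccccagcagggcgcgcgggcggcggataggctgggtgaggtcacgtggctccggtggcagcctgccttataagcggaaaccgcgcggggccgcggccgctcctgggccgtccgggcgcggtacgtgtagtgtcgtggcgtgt
Insig2: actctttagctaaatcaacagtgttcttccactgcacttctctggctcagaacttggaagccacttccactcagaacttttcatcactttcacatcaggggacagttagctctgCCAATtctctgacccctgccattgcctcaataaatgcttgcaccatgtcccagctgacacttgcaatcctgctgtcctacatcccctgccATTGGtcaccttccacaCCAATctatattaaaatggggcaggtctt

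The sterol regulatory element in this spelling was found before 1 of the 23 genes, Hmgcs1, with its first base 137 bases before the start, where 1.22% of the 27025 genes with a window had it. A CCAAT box stood before 19 of 23 genes, against 37.5% of all genes. The letters GGGCGG, bound by SP1, stood before 20 of 23 genes, against 35.4% of all, and the E-box CACGTG before 5 of 23 (Dhcr7, Hsd17b7, Insig1, Sc5d and Scap), against 6.86%. GGGCGG was read on both strands (CCGCCC on the other), CACGTG reads the same on either strand, and no motif contains another. A gene with several starts was counted once if any of its windows held the letters. Insig2 has several starts in RefSeq, and its CCAAT boxes are all in the window shown, 136, 46 and 29 bases before its start. Of the 12 matched genes that rose with the powder against the model, 11 had a CCAAT box, 11 GGGCGG and 3 CACGTG. A match of letters is a description of the sequence, and binding was not measured.

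The genes of this pathway covered a wide range of levels in control liver. Since FPKM is scaled by transcript length, levels can be set side by side between genes. Ebp, a sterol isomerase of the late pathway, had the highest mean level in control liver (107 ± 12.8 FPKM, SD, n = 5), followed by Sc5d, the lathosterol oxidase (57.1 ± 6.92 FPKM), Insig1 (49.2 ± 5.11 FPKM) and the sterol reductase Tm7sf2 (45.2 ± 10.2 FPKM). These last 3 ranges overlapped one another. The lowest was Mvd, mevalonate diphosphate decarboxylase (1.38 ± 0.469 FPKM), below Mbtps2 (1.52 ± 0.224 FPKM) and Ggps1 (1.84 ± 0.29 FPKM), whose ranges it overlapped. In BBBPH liver the order had changed at the top, with Fdps, farnesyl diphosphate synthase, first (113 ± 29 FPKM), although its range of 87.96 to 150.4 FPKM overlapped that of Ebp (91.38 to 108.8 FPKM). Sqle, squalene epoxidase, moved from rank 24 of 27 in control liver to 21 in model and 15 in BBBPH liver.

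**Figure D1:**
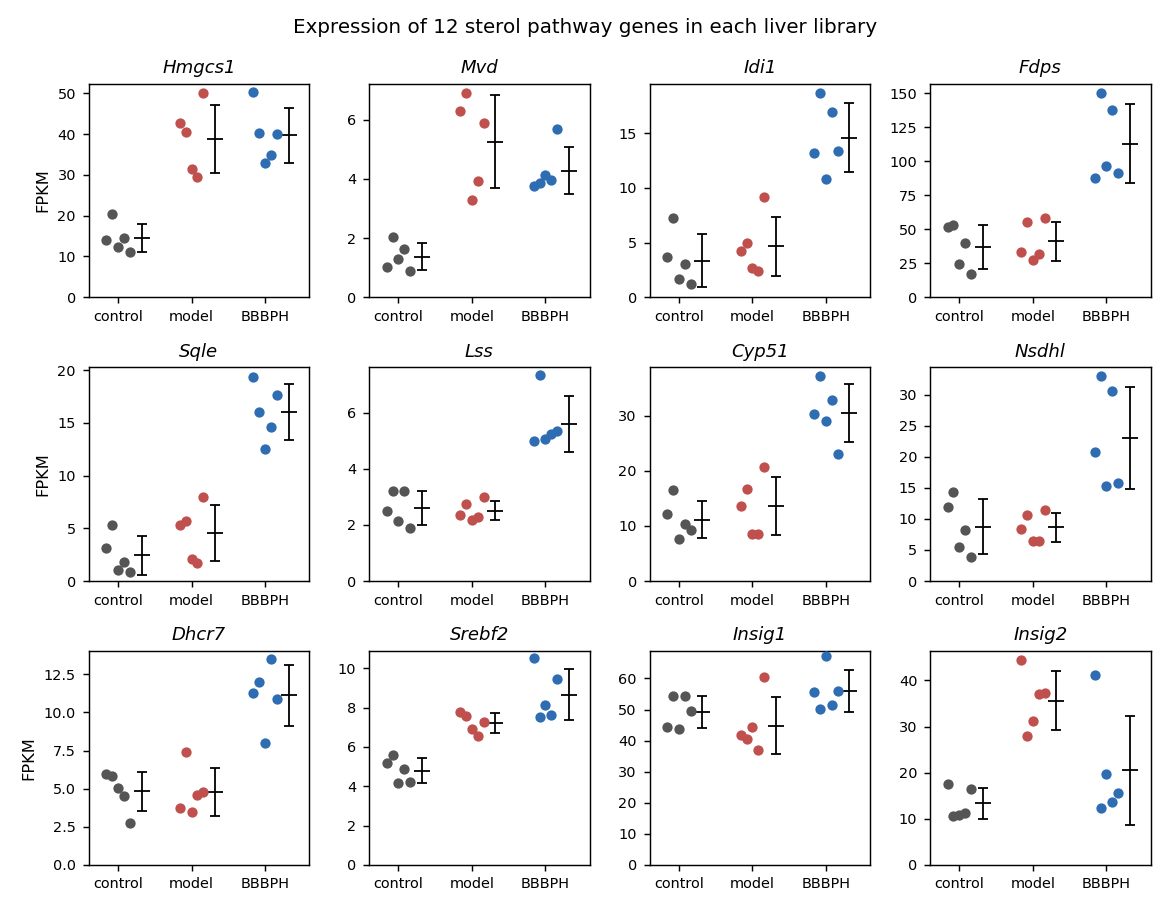
Level of 12 of the genes in FPKM (vertical axes, linear, from 0) in each liver library, with control in grey, model in red and BBBPH in blue; the bar beside each group is its mean ± SD (n = 5). Hmgcs1, Mvd and Srebf2 are high in both diet groups, Idi1, Fdps, Sqle, Lss, Cyp51, Nsdhl and Dhcr7 are high in BBBPH livers alone, and Insig2 is high in model livers and in 1 BBBPH library.

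The comparison of model with control livers shows the pathway after 20 weeks of the diet. In model livers 4 of the 27 genes were higher than in control livers and 3 were lower, and most enzymes did not pass the test. Those that rose were Hmgcs1, which makes HMG-CoA, Mvd, Srebf2 and the retention protein gene Insig2. Those that fell were Pmvk, phosphomevalonate kinase, Tm7sf2 and Stard4, a cytosolic sterol carrier. Of all 9575 genes tested, 29.9% rose and 8.64% fell as deposited (limma on log2(FPKM + 1), adjusted p under 0.05). With the values as deposited, 4 of 27 rising is a smaller share than among all genes, and 3 of 27 falling is near theirs. The first reading depends on the scaling. With median ratios 1482 of all genes rose and 1809 fell, and with quantiles 1499 and 1742. In either case 4 of the 27 rose and 6 fell, near the shares of all genes. The median log2 fold change was 0.05 over the 27 genes and 0.12 over all genes tested. The model libraries lay wholly above the control libraries in the 4 genes that rose and wholly below them in none, where 18.8% and 5.07% of all genes lay apart in these directions.

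Hmgcs1 was higher in every model library than in any control library. Its levels were 14.1, 20.3, 12.4, 14.4 and 11.2 FPKM in the 5 control libraries and 42.6, 40.4, 31.6, 29.5 and 50.1 FPKM in the model libraries. The groups did not overlap, and the means differed 2.68-fold (log2 fold change 1.36 ± 0.16, SE, limma, adjusted p = 2.83e-05). Hmgcs1 lies on chromosome 13 (119690379 to 119708260, GRCm38). Mvd had 1.02, 2.04, 1.3, 1.62 and 0.882 FPKM in control and 6.28, 6.91, 3.27, 3.94 and 5.9 FPKM in model livers. Again no library overlapped, and model livers had 3.83 times the control level (log2 fold change 1.38 ± 0.17, SE, limma, adjusted p = 3.7e-05). Between these steps act the kinases Mvk and Pmvk. Mvk, mevalonate kinase, was not called (log2 fold change 0.30, 95% interval -0.11 to 0.70), and Pmvk fell by 0.40 on the log2 scale (adjusted p = 0.0351).

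Srebf2 rose less but evenly. Control libraries had 5.19, 5.59, 4.15, 4.85 and 4.21 FPKM and model libraries 7.77, 7.57, 6.92, 6.55 and 7.29 FPKM. The groups did not overlap, and the log2 fold change was 0.51 ± 0.09 (SE, limma, adjusted p = 0.00071). Insig2 had 17.6, 10.6, 10.7, 11.3 and 16.6 FPKM in control and 44.5, 27.9, 31.2, 37 and 37.3 FPKM in model livers, also without overlap (log2 fold change 1.36 ± 0.26, SE, limma, adjusted p = 0.000852). Its relative Insig1, itself a well known SREBP2 target, had a log2 fold change of -0.15 (95% interval -0.40 to 0.11, adjusted p = 0.343), and the ratio of Insig2 to Insig1 was 0.196 to 0.396 in control and 0.616 to 1.06 in model livers. Scap (-0.02), Mbtps1 (0.08) and Mbtps2 (0.05) had log2 fold changes near 0, with 95% intervals within -0.17 and 0.25.

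Between squalene and cholesterol, 1 of 12 genes fell and 0 rose by limma (at an unadjusted p under 0.05, Fdft1, Tm7sf2 and Lbr were lower and Msmo1 higher; voom on recovered counts called the same numbers over all 27 genes, 4 higher and 3 lower). Tm7sf2 had 54.4, 55.9, 36.2, 46 and 33.6 FPKM in control and 27.7, 20.8, 27, 26.5 and 40.8 FPKM in model livers. Model 3_4 was the only model library within the control range, and the log2 fold change was -0.65 ± 0.17 (SE, limma, adjusted p = 0.00701). Stard4, outside the chain of enzymes, had 20.7, 24.8, 15.5, 16.2 and 14.6 FPKM in control and 10.4, 15.4, 13.4, 12 and 12.8 FPKM in model livers. Model 1_4 lay inside the control range, and the fall of 0.48 on the log2 scale passed the test (limma, adjusted p = 0.0318). Sqle spread over 0.894 to 5.34 FPKM in control and 1.73 to 8 FPKM in model livers, and its log2 fold change of 0.71 (95% interval -0.03 to 1.45) was not called. Msmo1, the sterol methyl oxidase, had a log2 fold change of 0.80 (95% interval 0.13 to 1.47) with an adjusted p of 0.0553. The other 9 genes from Fdft1 to Dhcr7 that were not called had log2 fold changes between -0.33 and 0.23.

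Of the 3 lower calls in this comparison, that of Tm7sf2 was kept with each library left out, and those of Pmvk and Stard4 were not. Pmvk lost its call without control 1_1, 1_5 or 2_1 or model 2_1 or 2_3, without the 3 libraries together, with all genes tested and with only the 2 groups in the fit (adjusted p = 0.0508 to 0.0886), and Stard4 without control 1_1 or 1_5 or model 1_1 or 2_3 and with all genes tested (adjusted p = 0.0583 to 0.0857). Without control 1_5 or model 2_3 only Tm7sf2 was lower, and Sqle and Msmo1 were then called higher (adjusted p = 0.0116 to 0.0486), which made 6 higher and 1 lower. Lbr, a reductase that also serves in the nuclear envelope, was called lower without control 2_1, model 3_4 or BBBPH 3_2 or the 3 libraries together (adjusted p = 0.0245 to 0.0494), Fdft1, squalene synthase, without control 1_1 or 3_4 or BBBPH 2_1 (adjusted p = 0.0403 to 0.0492), and Insig1 without model 3_4 (adjusted p = 0.0473), which made 5 lower in that fit. Scaling by median ratios or quantiles took the median over all genes tested from 0.12 to -0.01 on the log2 scale in either case and the split of the 27 genes from 4 higher and 3 lower to 4 higher and 6 lower, adding Acat2, Fdft1 and Lbr; the same scalings took the share of higher calls among all genes from 77.6% to 45% and 46.3%. Relative to the median of all genes, the median of the 27 genes was -0.06 as deposited, -0.07 with median ratios and -0.04 with quantiles. In these same libraries 8 of 10 stellate cell markers rose and 0 fell, and 4 of 9 hepatocyte markers fell and 0 rose; their part in the changes of the 27 genes was not tested.

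The comparison of BBBPH with model livers shows the pathway with and without the powder on the same diet. With the powder, 16 of the 27 genes rose and 1 fell, where 14.2% of all genes tested rose and 12.2% fell. At an unadjusted p under 0.05 by limma, 20 were higher and 1 lower, and voom on recovered counts called 18 higher and 1 lower. The rise ran through the chain: 5 of 7 genes up to farnesyl diphosphate, 3 of 3 genes from squalene to lanosterol, and 7 of 9 genes from lanosterol to cholesterol. The sterol carrier gene Stard4 also rose. Of the 6 regulatory genes 0 rose, and Insig2 was the gene that fell. The median log2 fold change was 0.58 over the 27 genes and 0.02 over all genes tested, and BBBPH libraries lay wholly above model libraries in 13 genes and wholly below in 0, against 9.11% and 7.9% of all genes.

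The largest rise was that of Sqle, the epoxidase that commits squalene to sterols. Its levels were 5.33, 5.74, 2.1, 1.73 and 8 FPKM in the model libraries and 19.3, 16.1, 12.5, 14.7 and 17.7 FPKM in the BBBPH libraries. The groups did not overlap although model libraries differed 4.61-fold among themselves (log2 fold change 1.74 ± 0.35, SE, limma, adjusted p = 0.00187). Fdft1 and Lss, the enzymes just before and after it, rose by 0.65 and 0.90 on the log2 scale. Lss, lanosterol synthase, had 2.36, 2.76, 2.17, 2.29 and 3 FPKM in model and 5.01, 7.35, 5.05, 5.24 and 5.34 FPKM in BBBPH livers. The groups did not overlap, and BBBPH 2_2, the library with acinar markers, stood above the other BBBPH libraries. It had the smallest adjusted p of the 27 genes in this comparison (log2 fold change 0.90 ± 0.12, SE, limma, adjusted p = 8.51e-05).

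Of the early steps, Idi1 and Fdps rose most. Idi1, the isomerase of isopentenyl diphosphate, had 4.24, 4.92, 2.65, 2.39 and 9.12 FPKM in model and 13.2, 18.6, 10.8, 16.9 and 13.4 FPKM in BBBPH livers. Model 3_4 came closest to the BBBPH range but stayed below it (log2 fold change 1.55 ± 0.33, SE, limma, adjusted p = 0.00281). Fdps had 33.4, 55.2, 27.1, 31.6 and 58.2 FPKM in model and 88, 150, 96.8, 138 and 91.4 FPKM in BBBPH livers, with a gap between the groups (log2 fold change 1.46 ± 0.30, SE, limma, adjusted p = 0.00228). Pmvk (0.83), Mvk (0.68) and the thiolase Acat2 (0.58) rose less on the log2 scale. The pair of early genes already high on the diet was not called here. Hmgcs1 had 50.4, 40.4, 32.8, 34.8 and 40 FPKM in BBBPH livers, with 4 libraries inside the model range and BBBPH 2_1 just above it. Its log2 fold change was 0.04 (95% interval -0.31 to 0.39, adjusted p = 0.879). Mvd had 3.76, 3.87, 4.12, 3.95 and 5.69 FPKM and a log2 fold change of -0.22 (95% interval -0.58 to 0.15, adjusted p = 0.374).

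Among the enzymes that act on lanosterol and its products, Nsdhl, Cyp51 and Dhcr7 rose most. Nsdhl, a dehydrogenase that helps to remove methyl groups, had 8.36, 10.6, 6.37, 6.48 and 11.4 FPKM in model and 20.8, 32.9, 15.3, 30.5 and 15.7 FPKM in BBBPH livers, without overlap (log2 fold change 1.28 ± 0.30, SE, limma, adjusted p = 0.00489). Cyp51, the lanosterol demethylase, had 13.7, 16.7, 8.56, 8.58 and 20.6 FPKM in model and 30.3, 37.3, 29, 33 and 23 FPKM in BBBPH livers. The gap between the groups was narrow, between model 3_4 and BBBPH 3_4 (log2 fold change 1.17 ± 0.23, SE, limma, adjusted p = 0.00161). Dhcr7, the reductase that yields cholesterol, had 3.74, 7.39, 3.45, 4.56 and 4.78 FPKM in model and 11.3, 12, 8.02, 13.5 and 10.9 FPKM in BBBPH livers, again apart (log2 fold change 1.09 ± 0.19, SE, limma, adjusted p = 0.000638). Hsd17b7 (0.67), Tm7sf2 (0.55), Sc5d (0.37) and Lbr (0.27) rose by smaller log2 changes. Ebp, the isomerase with the highest control level, had a log2 fold change of -0.15 (95% interval -0.32 to 0.03). Msmo1 had a log2 fold change of 0.84 (95% interval 0.18 to 1.51) with an adjusted p of 0.0591.

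Srebf2 itself was not called against the model. Its BBBPH levels were 10.6, 7.53, 8.15, 7.63 and 9.44 FPKM, of which BBBPH 2_2 and 3_2 lay within the model range, and the log2 fold change was 0.22 (95% interval 0.03 to 0.42, adjusted p = 0.0875). Insig2 had 41.1, 12.4, 19.8, 13.6 and 15.6 FPKM in BBBPH livers. BBBPH 2_1 stood inside the model range, and the other 4 libraries lay below every model library (log2 fold change -0.89 ± 0.26, SE, limma, adjusted p = 0.018). The ratio of Insig2 to Insig1 was 0.247 to 0.294 in those 4 libraries, within the span of the control livers, and 0.741 in BBBPH 2_1. Insig1 had a log2 fold change of 0.33 (95% interval 0.08 to 0.58, adjusted p = 0.0519), Scap of 0.05, Mbtps1 of 0.18 and Mbtps2 of 0.08. Ggps1, which diverts farnesyl diphosphate to geranylgeranyl groups, had 1.72 ± 0.0394 FPKM in model and 1.59 ± 0.0986 FPKM in BBBPH livers, with a 95% interval of -0.22 to 0.07 for its log2 fold change. Stard4 had 15.8, 29.6, 26.3, 26.8 and 24.6 FPKM in BBBPH livers, where BBBPH 2_1 lay just above the highest model library (log2 fold change 0.88 ± 0.16, SE, limma, adjusted p = 0.0012).

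**Figure D2:**
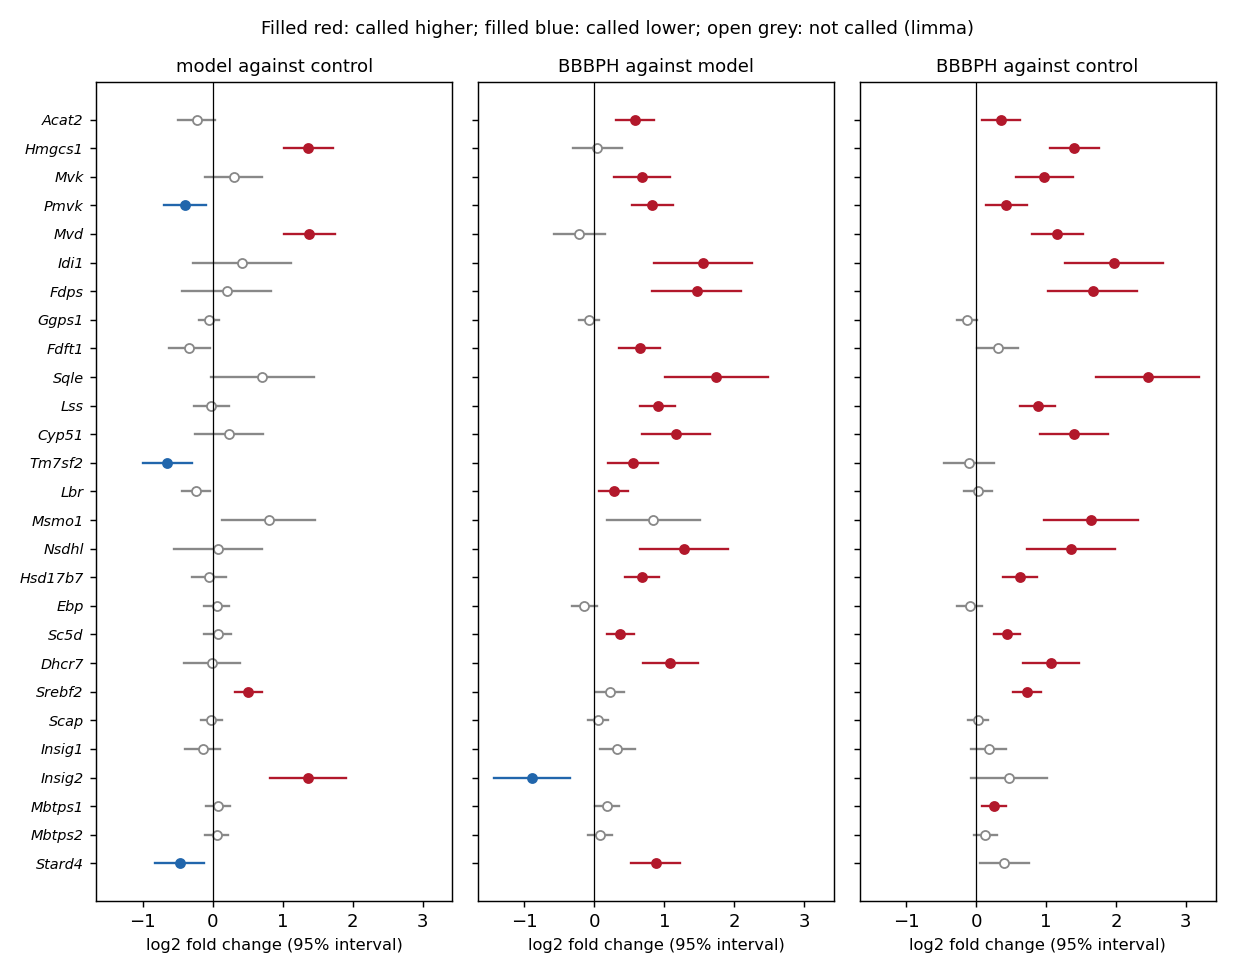
Log2 fold change on the log2(FPKM + 1) scale (horizontal axes) with its 95% interval for each of the 27 genes (rows, in pathway order) in the 3 comparisons; filled red points were called higher, filled blue points lower, and open grey points were not called (limma, adjusted p under 0.05). In BBBPH against model, 16 points are red from Acat2 to Stard4 and 1, Insig2, is blue, and the points of Hmgcs1 and Mvd lie near 0 there but above 1 in both comparisons with control.

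In 14 of the 17 genes the call stayed through every one of the 27 alternatives without replicate numbers in which the gene was tested. Of these genes, Mvk and Lss fell below the filter at 5 FPKM and were not tested there. The call of Lbr ended in many fits, among them those without control 1_5, 2_2 or 3_4, model 1_1, 2_1 or 2_3, or BBBPH 2_2, 3_1 or 3_4 (adjusted p = 0.0502 to 0.119), that of Tm7sf2 without model 1_4 or BBBPH 2_2 or 3_2 or the 3 libraries together (adjusted p = 0.0564 to 0.115), and that of Insig2 without the 3 libraries together (adjusted p = 0.0505). Msmo1 was called higher without control 1_5 or 3_4 or model 3_4 (adjusted p = 0.0165 to 0.0345) and Insig1 without model 3_4 (adjusted p = 0.0043). Msmo1 was also called with only the 2 groups in the fit, with library weights and with voom on counts (adjusted p = 0.00701 to 0.0485). Insig1 was also called with the filter at 5 FPKM, quantiles, robust variance, library weights and voom on counts (adjusted p = 0.0388 to 0.0494). In this comparison 5 of 10 stellate cell markers fell and 0 rose, and 2 of 9 hepatocyte markers rose and 1 fell; their part in the result was not tested.

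The comparison of BBBPH with control livers sets livers with both the diet and the powder against the control group. In it 17 of the 27 genes rose, where 24.4% of all genes tested rose, and 0 fell, where 3.7% of all did (limma; at an unadjusted p under 0.05, 19 were higher and 0 lower, and voom on recovered counts called 17 higher and 0 lower). All 7 genes from Acat2 to Fdps rose, with 2 of 3 around squalene, 6 of 9 after lanosterol and 2 of 6 regulatory genes. The median log2 fold change was 0.47 over the 27 genes and 0.13 over all genes tested. BBBPH libraries lay wholly above control libraries in 13 genes and wholly below in 0, where 15.3% and 2.22% of all genes did.

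Sqle again had the largest change, from 3.12, 5.33, 1.01, 1.8 and 0.894 FPKM in the control libraries to the BBBPH values given above. All BBBPH libraries lay above all control libraries, and the means differed 6.6-fold (log2 fold change 2.45 ± 0.35, SE, limma, adjusted p = 0.000369). Idi1 had 3.63, 7.23, 1.63, 3.05 and 1.22 FPKM in control livers, all below the BBBPH range, and rose 4.35-fold (log2 fold change 1.98 ± 0.33, SE, limma, adjusted p = 0.000956). Msmo1 had 11.3, 23.7, 12.3, 12.4 and 4.41 FPKM in control and 36.4, 41.9, 28.4, 37.7 and 46.3 FPKM in BBBPH livers, with control 1_5 highest and control 3_4 lowest of its group. It was called in this comparison (log2 fold change 1.64 ± 0.31, SE, limma, adjusted p = 0.00221) and in neither other; the model libraries, at 12.8 to 32.7 FPKM, overlapped both groups. The other rises of enzymes on the log2 scale were those of Fdps (1.67), Hmgcs1 (1.40), Cyp51 (1.40), Nsdhl (1.36), Mvd (1.16), Dhcr7 (1.07), Mvk (0.98), Lss (0.88), Hsd17b7 (0.62), Sc5d (0.44), Pmvk (0.44) and Acat2 (0.35). Srebf2 rose by 0.73 ± 0.09 (SE, limma, adjusted p = 0.000171), with no overlap of the groups, and Mbtps1, the protease that cuts SREBP2 first, by 0.26 (adjusted p = 0.027).

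Insig2 was not called against control (log2 fold change 0.47, 95% interval -0.07 to 1.02), and without BBBPH 2_1 its log2 fold change was 0.20, again not called. Tm7sf2 and Lbr had log2 fold changes of -0.10 and 0.03. Fdft1 (0.31) and Stard4 (0.40) missed the threshold (adjusted p = 0.103 and 0.0776) but passed without control 1_5 or BBBPH 2_1 (adjusted p = 0.0102 to 0.0328), and Mbtps2 passed without the 3 libraries together (adjusted p = 0.0484). Calls of Acat2, Pmvk and Mbtps1 depended on the scaling: with median ratios their log2 fold changes were 0.19, 0.28 and 0.09 in place of 0.35, 0.44 and 0.26 (adjusted p = 0.182 to 0.458), and that scaling moved the median of all genes from 0.13 to -0.01 and made Ggps1 and Ebp lower (14 higher and 2 lower; with quantiles 14 higher and 1 lower). Acat2 also lost its call without control 1_1, 2_1 or 3_4, any model library, or BBBPH 2_2 or 3_2, Pmvk without control 2_2 or 3_4 or BBBPH 2_2, and Mbtps1 without control 1_5 or 2_2 or BBBPH 2_1, 3_1 or 3_2 (adjusted p = 0.0503 to 0.123). Relative to the median of all genes the 27 genes had a median of 0.34 as deposited and 0.32 with median ratios.

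Since the 3 comparisons share groups, their calls are set side by side rather than counted as repeats. The commonest pattern, in 11 genes (Acat2, Mvk, Idi1, Fdps, Sqle, Lss, Cyp51, Nsdhl, Hsd17b7, Sc5d and Dhcr7), was no call in model against control and a rise in BBBPH livers against both other groups. Hmgcs1, Mvd and Srebf2 rose on the diet, were not called between the diet groups, and stayed above control. Pmvk, Tm7sf2 and Stard4 fell on the diet and rose with the powder, and Pmvk ended above control. Insig2 went the other way, up on the diet and down with the powder. Ggps1, Ebp, Scap, Insig1 and Mbtps2 were called in none of the 3 comparisons.

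**Figure D3:**
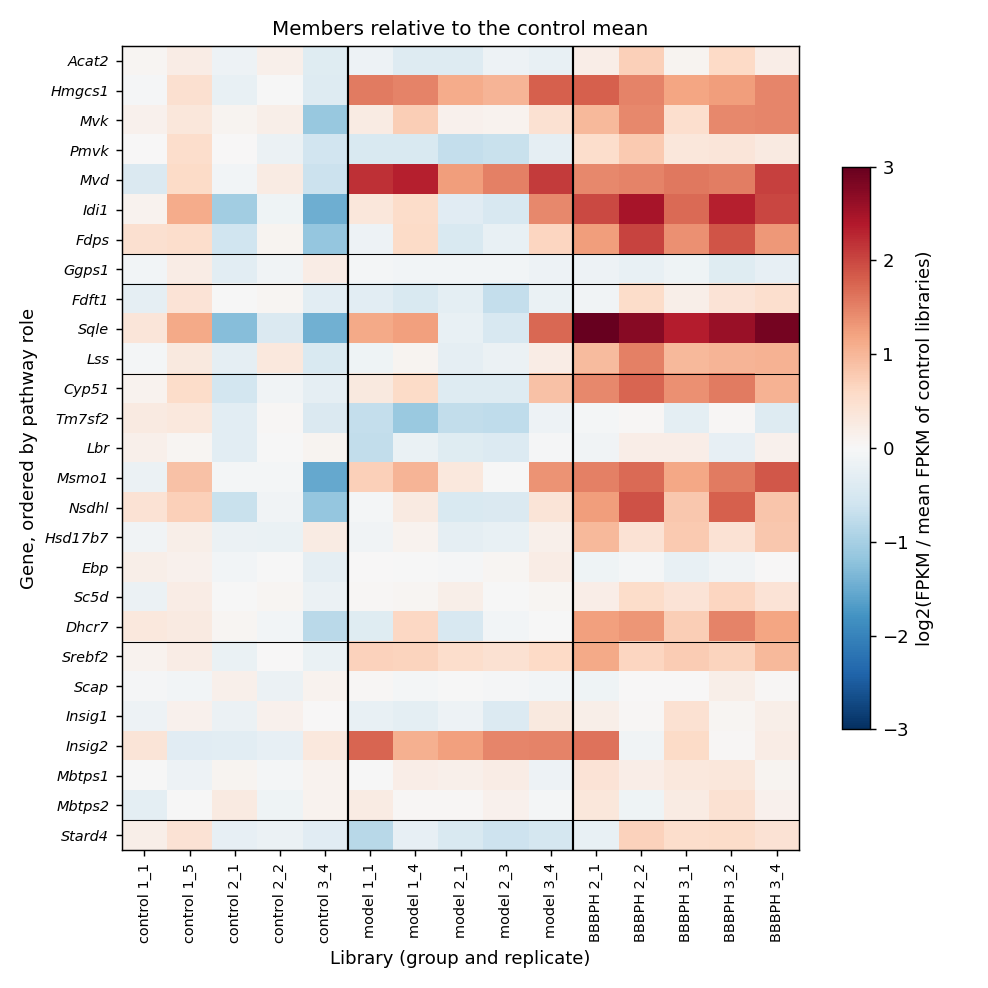
Log2 of FPKM over the mean FPKM of the control libraries (colour, red higher and blue lower) for the 27 genes (rows, in pathway order) in the 15 libraries (columns, by group). Red covers most enzymes from Mvk to Dhcr7 in BBBPH libraries, with Pmvk, Fdft1 and Sc5d faint and Ggps1, Tm7sf2, Lbr and Ebp pale. Fdft1 in BBBPH 2_1 lies below the control mean. Hmgcs1, Mvd, Srebf2 and Insig2 are red in all 5 model libraries, and control 1_5 and control 3_4 differ from each other along the chain.

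Within a group, single libraries were highest or lowest for many of the 27 genes. The same counts were not made over all genes tested. In the control group, control 1_5 had the highest level for 16 of the 27 genes and control 3_4 the lowest for 17. In the model group, model 3_4 was highest for 15, and model 2_1 and 2_3 were lowest for 10 and 9. In the BBBPH group, BBBPH 2_2 was highest for 10 and BBBPH 3_1 lowest for 9. In the control group the highest library had 5.96 times the lowest for Sqle, 5.92 times for Idi1 and 5.38 times for Msmo1, against 1.24 times for Insig1 and 1.27 times for Scap.

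To describe this shared spread, each library's deviation from its group mean on the log2(FPKM + 1) scale was compared with that of Hmgcs1 for the other 26 genes. With all 15 libraries, 6 genes had a correlation with an adjusted p under 0.05 (permutation test within groups, adjusted over the 26 relations). They were Sqle (Pearson r = 0.92, permutation p = 2e-05, adjusted p = 0.00052; Spearman rho = 0.893, adjusted p = 0.0013), Idi1 (r = 0.828, rho = 0.754), Msmo1 (r = 0.812, rho = 0.786), Pmvk (r = 0.757, rho = 0.764), Cyp51 (r = 0.754, rho = 0.764) and Srebf2 (r = 0.754, rho = 0.6). By rho Nsdhl was added (r = 0.645, rho = 0.618). Without control 1_5 and model 2_3, the libraries farthest from the median of Hmgcs1, r was 0.87 for Sqle, 0.727 for Idi1, 0.699 for Msmo1, 0.686 for Srebf2, 0.655 for Pmvk and 0.633 for Cyp51. Scap and Mbtps1 had negative r, -0.555 and -0.584, which did not pass (permutation test, adjusted p = 0.0849 for both). Stard4 (0.083), Sc5d (0.106) and Lbr (0.169) had r near 0. Over the 351 pairs among the 27 genes the median r was 0.302, and 237 pairs were above 0. Points of the same library share its depth and its mixture of cells, and with median-ratio scaling 10 genes passed. Correlations with Hmgcs1 were not computed for the other genes tested, so that these counts have no share of all genes beside them.

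**Figure D4:**
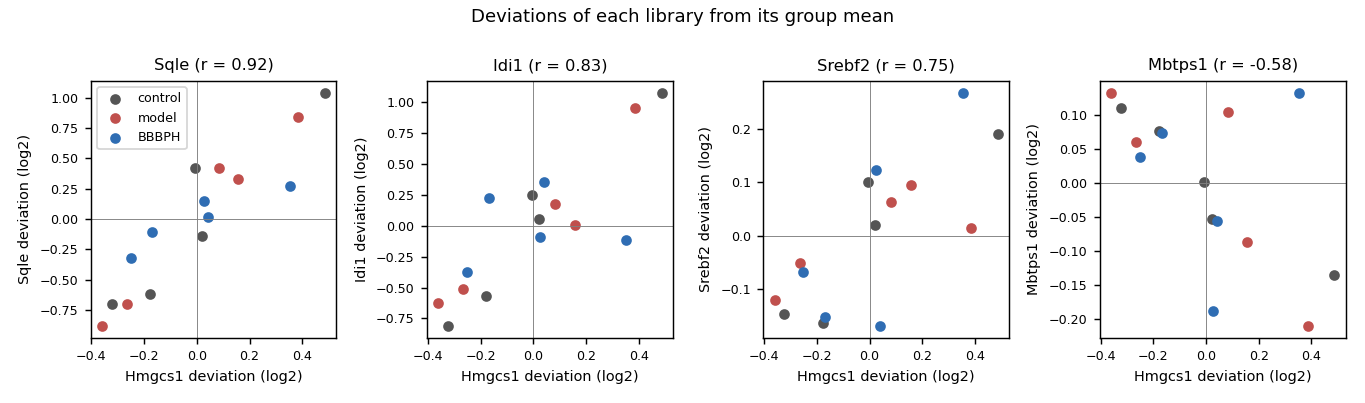
Deviation of each of the 15 libraries from its group mean in log2(FPKM + 1), for Hmgcs1 (horizontal axes) and for Sqle, Idi1, Srebf2 and Mbtps1 (vertical axes), with control in grey, model in red and BBBPH in blue and Pearson r over each panel. The points of Sqle lie close to a rising line (r = 0.92) with libraries of all 3 groups along it, and those of Mbtps1 fall (r = -0.58), a relation that did not pass.

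Genes beyond the synthesis chain, taken from lists on neighbouring steps, did not all move with it. Their counts are to be read against all genes tested, of which 29.9% rose and 8.64% fell on the diet, 14.2% rose and 12.2% fell with the powder against the model, and 24.4% rose and 3.7% fell in BBBPH against control livers. These shares hold for the FPKM as deposited, and the lists were not counted under other scalings. Of 11 tested genes of the isoprenoid branches, 5 rose and 0 fell on the diet, 1 rose and 2 fell with the powder against the model, and 4 rose and 0 fell against control, with median log2 fold changes of 0.25, 0.03 and 0.21. Nus1, a subunit of the enzyme that makes dolichol, rose by 0.32 on the diet and fell by 0.31 with the powder on the log2 scale. Of 15 genes of SREBP retention, degradation at the endoplasmic reticulum and transport to the Golgi, 5 rose and 3 fell on the diet, 6 rose and 3 fell with the powder, and 3 rose and 0 fell against control (medians -0.02, 0.06 and -0.01). The 1 of 11 isoprenoid genes that rose with the powder, the 5 of 15 retention genes that rose on the diet and the 3 of 15 that rose against control are near the shares of all genes. Syvn1, a ubiquitin ligase of the endoplasmic reticulum, went from 10.9 ± 2.75 in control to 43.7 ± 8.35 in model and 9.39 ± 2.13 FPKM in BBBPH livers. Rnf145, a sterol-responsive ubiquitin ligase of the same membrane, fell by 0.89 on the log2 scale on the diet (limma, adjusted p = 0.00019), and Sec24c, a coat protein of vesicles bound for the Golgi, rose by 0.46.

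Of 18 tested genes of sterol uptake and transport, 2 rose and 4 fell on the diet, 8 rose and 1 fell with the powder against the model, and 5 rose and 0 fell against control (medians -0.13, 0.25 and 0.12). The 5 of 18 that rose against control are near the share of all genes. Tmem97, a sterol-binding membrane protein, went from 38.4 ± 2.17 FPKM in model to 65.9 ± 8.9 FPKM in BBBPH livers (log2 fold change 0.75, limma, adjusted p = 0.0015). Osbp, which exchanges sterol between membranes, rose by 0.52 on the diet and fell by 0.52 with the powder on the log2 scale. SREBP1 and lipogenesis genes, which share SCAP and the INSIG proteins with SREBP2, had medians further from 0: on the diet 0 of 15 rose and 9 fell, and with the powder 11 rose and 1 fell (medians -0.87 and 1.56). Srebf1 went from 20.2 ± 6.94 in control to 10.7 ± 2.7 in model and 27.3 ± 8.8 FPKM in BBBPH livers, so that Srebf1 fell on the diet where Srebf2 rose. Against control 9 of the 15 rose and 1 fell (median 0.62).

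Of 8 LXR targets and sterol exporters, 0 rose and 3 fell on the diet (limma; the 3 were Abcg5, Abcg8 and Lpcat3), and the same 3 rose with the powder against the model. Abcg5, a subunit of the biliary sterol exporter, went from 43.2 ± 2.27 in control to 22.3 ± 4 in model and 50.2 ± 9.58 FPKM in BBBPH livers, while Abca1 had log2 fold changes of -0.07, -0.02 and -0.10 in the 3 comparisons. Of 14 genes of bile acid synthesis, which uses up cholesterol, 4 rose and 3 fell on the diet, 1 rose and 5 fell with the powder, and 4 rose and 4 fell against control (medians -0.05, -0.22 and -0.29). The 4 of 14 that rose on the diet and against control are near the shares of all genes. Cyp7a1, the enzyme that sets the rate of bile acid synthesis, had 33.9 ± 17.4, 29.9 ± 15.2 and 12.3 ± 14.5 FPKM in control, model and BBBPH livers. It was called lower in BBBPH against control livers (log2 fold change -2.03, limma, adjusted p = 0.0357). Neither the diet nor the powder against the model gave a call for Cyp7a1 (limma, adjusted p = 0.88 and 0.0506). Core clock genes also differed between the groups, and the synthesis chain is known to follow the time of day: 2 of 14 rose and 6 fell on the diet, 7 rose and 4 fell with the powder, and 3 rose and 1 fell against control, of which the last counts are near the shares of all genes. Nr1d1, a clock repressor, had 11 ± 2.71, 29.7 ± 6.87 and 9.13 ± 5.05 FPKM, Per2 had 6.24 ± 1.16, 3.29 ± 0.649 and 4.9 ± 0.885 FPKM, and Dbp was not called in any comparison (log2 fold changes -0.77, 0.75 and -0.02). The hour of sampling is not given, and its part in the changes of the 27 genes was not tested.

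Of the 27 genes, 13 share exon bases with another gene or resemble another transcript, so that their levels are less certain. Acat2 on chromosome 17 (12942890 to 12960747) resembles Acat3 at 97.7% over 1477 bases of transcript, and Acat3 had 75.8 ± 15.5, 107 ± 5.34 and 65.6 ± 13.3 FPKM in control, model and BBBPH livers, above Acat2 in each group. Acat2 also resembles Tcp1 at 98.7% over 445 bases, and Tcp1 had 53.1 ± 1.96, 56.2 ± 5.45 and 65.25 ± 5.08 FPKM in the same order. Fdft1 on chromosome 14 (63145150 to 63179578) shares 774 of 4227 exon bases with Ctsb on the opposite strand, which had 316 ± 22.7, 375 ± 37.1 and 314 ± 29.3 FPKM, and whether counting used the strand is not stated. Tm7sf2 on chromosome 19 shares 532 of 4403 exon bases with Vps51, and Fdps on chromosome 3 shares 1124 of 4208 with Gm43738, both on the same strand. Mbtps2 shares 2867 of 10105 exon bases with Yy2 on the same strand, which had 0.17 ± 0.031, 0.162 ± 0.0488 and 0.149 ± 0.075 FPKM. Idi1 on chromosome 13 (8885501 to 8892451) resembles Gm13502 over 684 bases at 100%. Hmgcs1 shares 557 of 4594 exon bases with the antisense gene Gm48342. Parts of Ggps1 (257 of 4721, Arid4b), Lss (381 of 10787, 4930483K19Rik), Cyp51 (166 of 4415, Akap9), Lbr (440 of 4761, Dnah14) and Scap (985 of 7443, 5830462I19Rik) overlap a gene on the opposite strand. Msmo1 resembles 10 other genes over 200 to 203 bases at 95% to 97.5%. Sqle (chromosome 15, 59315077 to 59331192), Nsdhl (chromosome X, 72918557 to 72958514), Dhcr7 (chromosome 7, 143823145 to 143848410), Insig2 (chromosome 1, 121304353 to 121332589) and Srebf2 (chromosome 15, 82147181 to 82205379) shared no exon bases with another gene in GENCODE M21 on GRCm38.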

How the data were processed

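RNA from 15 mouse liver samples was isolated with TRIzol, and sequencing libraries were built with a VAHTS kit, per the labels' protocols. The values used are FPKM made by the authors and deposited with 1 column per library. The submitters' processing notes list the build mm10 and the tools DESeq2, HTSeq, HISAT2 and fastp, with no versions; the annotation, the strand setting and any filter are not given in the sources used here. The table of the whole series and the 15 files of single libraries agreed exactly (largest difference 0 FPKM).

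The test was limma 3.58.1 in R 4.3.3 on log2(FPKM + 1), a scale that understates the change of low genes. It covered the 9575 of 17527 genes whose mean over all libraries was 1 FPKM or more, with 3 group means (12 residual degrees of freedom) and a mean-variance trend in eBayes. Adjusted p-values are 2-sided and follow Benjamini and Hochberg over all genes tested; calls needed one under 0.05. Every p or interval of a log2 fold change in the text comes from this limma fit or from its alternatives. The procedure was tested on simulated data.

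Counts were recovered from the FPKM steps for 15505 genes (100% of their values within 0.02 of a whole number) and gave the depth and the voom alternative. The chi-square per gene between libraries of a group was at least 31 in 30 pairs, so that none was a copy of another. Deviations from group means were compared by 100000 permutations within groups. Positions came from GENCODE M21, and start sites from RefSeq. Tables and plots were made in Python 3.11.15 (pandas 2.3.3, numpy 2.4.6, scipy 1.17.1, matplotlib 3.10.9), and library weights used statmod 1.5.0.

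The alternatives changed the pseudocount (to 0.1), the filter (none, or 5 FPKM), the scaling (TPM, median ratios, quantiles), the variance settings, the samples in the fit, the library weights, the unit (voom on counts), the block (by replicate number) and the libraries (each left out in turn, and 3 left out together). The 27 genes, the lists and the tests were chosen with earlier results of these data known. All 27 genes are named whatever their values; of each list the rule took up to 4 called genes with the smallest adjusted p per comparison and 9 genes whatever their values, of which the text names a few. Some genes that this rule takes are not reported here, and they stay in the tests and counts.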

Additional observations from a re-analysis of the deposited data

Results flagged for a closer look

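In 3 of the 81 sets of 5 libraries (27 genes in 3 groups), 1 library stood apart from its own group by Dixon's criterion on the log2(FPKM + 1) scale, with a gap to the nearest library of over 0.71 of the range. Chance alone flags about 1 in 20 sets. Mvk, mevalonate kinase, had 1.24 FPKM in control 3_4, where the other control libraries had 2.92 to 3.45 FPKM. Mvd had 5.69 FPKM in BBBPH 3_4, where the other BBBPH libraries had 3.76 to 4.12 FPKM. Lss had 7.35 FPKM in BBBPH 2_2, where the others had 5.01 to 5.34 FPKM. Control 3_4 was also the lowest control library for 17 of the 27 genes, and BBBPH 2_2 the highest BBBPH library for 10 of 27. The calls of Mvk, Mvd and Lss in BBBPH against control and of Mvk and Lss in BBBPH against model stayed without each of these libraries.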

How the results depend on the processing

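Over 29 alternatives no called direction reversed. Leaving out the replicate blocks, 5 of 7 calls in model against control, 14 of 17 in BBBPH against model and 14 of 17 in BBBPH against control were kept. They were kept under every one of the other 27 alternatives in which the gene was tested. With the filter at 5 FPKM, 21 of the 27 genes were tested. Mvk, Mvd, Ggps1, Lss, Lbr and Mbtps2 were not. The 3 genes lower in model against control became 1 with no filter, 6 with median-ratio scaling, 6 with quantile scaling and 5 with library weights, and 1 to 5 with each library left out. The 1 gene lower in BBBPH against model became 0 without the 3 libraries together. The 0 genes lower in BBBPH against control became 2 with median-ratio scaling and 1 with quantile scaling. The 6 genes whose deviations followed Hmgcs1 became 10 with median-ratio scaling. With the replicate number as a block, which leaves 4 residual degrees of freedom, the model against control had 3 higher in place of 4 (Insig2 lost its call, adjusted p = 0.0538) and 0 lower, BBBPH against model 4 higher (Sqle, Lss, Hsd17b7 and Dhcr7) and 0 lower, and BBBPH against control 11 higher; with the first digit of the number as a block BBBPH against model had 0 lower. The labels give these numbers no meaning. In the 8 same-numbered pairs across groups the residuals had correlations of -0.33 to 0.02, and 0 of 10 libraries correlated best with their own number. These values show no pairing by number, but they cannot show that there is none. No BBBPH library has a number that starts with 1, as control 1_1 and 1_5 and model 1_1 and 1_4 do. With the first digit as a block, Msmo1 and Srebf2 were called higher in BBBPH against model (adjusted p = 0.0375 for both), while Tm7sf2, Lbr and Insig2 lost their calls. The lowest count behind a value was 55 fragments, and the printed intervals reflect the spread of 5 libraries a group, inside which no difference could be told.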
